A study of Mus musculus with 4 samples.

Results

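TLX3, PTF1A and the factors that work with them in choosing between glutamatergic and GABAergic fates were examined in the cerebellum of postnatal day 7 Swiss mice. The 8 genes, TLX3, TLX1, LBX1, PTF1A, PRDM13, PAX2, NEUROG1 and NEUROG2, were chosen by name, and all probes carrying one of these symbols were taken from the deposited table. That gave 11 of the 45281 probes and 8 of the 30854 gene symbols of the array, with symbols written in capitals as in the table. RNA of the anterior lobes was compared with RNA of the posterior lobes, with 2 samples per lobe and 1 Illumina MouseWG-6 v2.0 array per sample. The mice carried no named mutation and received no treatment, and the number of animals behind a sample is not given in the sources used here. The comparison asks which genes differ between lobes that look alike but serve different functions, with Tlx3 as the gene of departure.

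TLX3 and its close relative TLX1 are homeobox factors, and in the dorsal spinal cord they turn developing neurons towards the glutamatergic fate. LBX1 and PAX2 stand on the GABAergic side there, and PTF1A, a basic helix-loop-helix factor, drives that side and acts partly through the zinc finger protein PRDM13 to hold TLX3 down. In the cerebellum PTF1A is needed for all GABAergic neurons, PAX2 marks young inhibitory interneurons, and the proneural factors NEUROG1 and NEUROG2 are expressed in the ventricular zone that gives rise to Purkinje cells and interneurons. Granule neurons come instead from the rhombic lip and are glutamatergic.

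The sequence before the start site is shown for the TLX pair, 1 of which was detected here and 1 not, and for PTF1A and PRDM13, the pair that opposes TLX3 in the spinal cord. The table of RefSeq promoters (GRCm38.p6) held 7 of the 8 genes, in 9 windows. Each line gives the 250 bases before the start site on the strand of the gene, 5′ to 3′, which end at the base before it. Capitals mark matches on either strand to CCAAT, the box bound by the NFY factor, to the E-box CANNTG, which basic helix-loop-helix factors bind, and to TGGGAA, the core bound by RBPJ, the partner of PTF1A. The windows lie at chr11:33203589-33203838 on the minus strand (TLX3), chr19:45150465-45150714 on the plus strand (TLX1), chr2:19445413-19445662 on the plus strand (PTF1A) and chr4:21685964-21686213 on the minus strand (PRDM13).
TLX3: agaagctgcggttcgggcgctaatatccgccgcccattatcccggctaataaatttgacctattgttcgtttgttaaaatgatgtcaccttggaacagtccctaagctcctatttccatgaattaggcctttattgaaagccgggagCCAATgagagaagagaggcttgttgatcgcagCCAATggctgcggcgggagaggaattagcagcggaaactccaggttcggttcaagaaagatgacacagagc
TLX1: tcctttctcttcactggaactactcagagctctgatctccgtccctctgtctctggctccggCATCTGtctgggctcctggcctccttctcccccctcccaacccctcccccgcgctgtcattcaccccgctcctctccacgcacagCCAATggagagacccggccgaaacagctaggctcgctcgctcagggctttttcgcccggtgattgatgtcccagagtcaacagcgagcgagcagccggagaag
PTF1A: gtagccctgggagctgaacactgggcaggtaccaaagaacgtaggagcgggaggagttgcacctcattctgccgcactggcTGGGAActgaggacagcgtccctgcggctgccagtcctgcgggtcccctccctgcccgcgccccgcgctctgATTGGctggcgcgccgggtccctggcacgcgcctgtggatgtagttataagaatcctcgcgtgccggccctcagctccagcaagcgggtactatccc
PRDM13: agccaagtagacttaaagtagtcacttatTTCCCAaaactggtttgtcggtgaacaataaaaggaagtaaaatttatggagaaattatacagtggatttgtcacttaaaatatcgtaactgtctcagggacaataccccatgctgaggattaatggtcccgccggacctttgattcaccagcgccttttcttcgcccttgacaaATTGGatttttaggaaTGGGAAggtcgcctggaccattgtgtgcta

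The TLX3 window held 2 CCAAT boxes, starting at positions -103 and -71 counted from the start site, and neither of the other motifs. The TLX1 window held 1 CCAAT box, also at -103, and an E-box at -188. PTF1A had a CCAAT box on the opposite strand at -97 and an RBPJ core at -169, and PRDM13 had a CCAAT box on the opposite strand at -46 and RBPJ cores at -221 and -30. Of all 32851 promoter windows of this length, 33.8% held a CCAAT box, 10.1% held 2 or more, 66.2% held an E-box and 21.6% an RBPJ core, with 2.77% holding 2 or more cores. No match overlapped another, and the NEUROG2 window held none of these letters. A match is a stretch of letters and not a measured binding site.

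The probes of these genes were read from 24 to 67 beads each, and the values below are mean bead intensities with no background taken off, so a fold on this scale understates a change of a dim gene. Median intensities of the 4 arrays lay between 110.2 and 129.6, and 46.5% to 47.6% of the probes per array were detected, meaning that fewer than 5% of the negative control probes were as bright. A probe was tested if it was detected on at least 2 of the 4 arrays, which kept 21726 probes. Quantile normalized log2 signals were compared by limma, with posterior minus anterior as the difference and p-values adjusted by Benjamini-Hochberg over the tested probes. With 2 arrays per lobe the smallest p an exact permutation test allows is 0.33, and each call rests on the spread that limma pools across probes. Nothing in the labels says that the 2 samples of a lobe came from separate animals, so that spread may be partly technical. Of 9 markers of cerebellar neurons 8 were tested, among them the Purkinje cell gene PCP2 and the granule cell factor ZIC1, while the Purkinje cell gene CALB1 was not detected on any array. As these are bulk samples, fewer cells of a type and less RNA per cell cannot be told apart.

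Of the 8 genes, 4 had a probe bright enough to be tested, namely TLX3, PTF1A, PRDM13 and NEUROG2, with 5 probes in all. On each of these 5 probes the lower posterior signal exceeded the higher anterior one, an order shown by 21.1% of all tested probes. All 5 also met the criterion of the study, a change over 1.2-fold whose p before adjustment is below 0.05. Of the tested probes 3.30% met it with a higher posterior signal and 8.29% in either direction, and 1086 met it with a lower posterior signal. TLX3 alone passed the adjusted p of 0.05, as did 0.0736% of all tested probes with a higher and 0.0322% with a lower posterior signal. TLX3 passed the filter only through the posterior lobes, where it was high, so it had to differ in order to be tested. The share of called probes is therefore not a result about the group as a whole, and PTF1A contributed a pair of probes that read the same RNA.

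**Figure D1:**
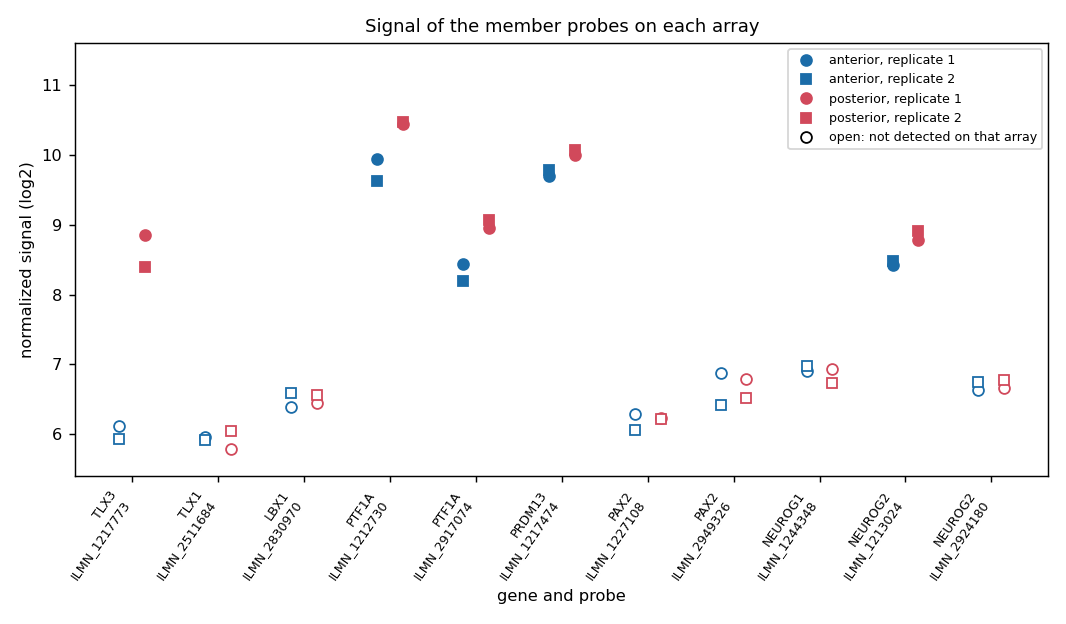
Quantile normalized log2 signal (y axis) of the 11 probes of the 8 genes (x axis) on each array, with anterior arrays in blue, posterior arrays in red, circles for replicate 1, squares for replicate 2, and open symbols where the probe was not detected on that array. The posterior symbols lie above the anterior ones for TLX3, both probes of PTF1A, PRDM13 and 1 of the probes of NEUROG2, and the symbols of the 6 other probes are all open.

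TLX3 was the only one of the 8 genes seen in one lobe and not in the other. Over the whole array, 97 of the 45281 probes were detected on both posterior and neither anterior array. Among those, TLX3 ranked 3 by the size of the posterior excess. The intensity of TLX3 was 73.1 ± 4.28 (standard error over beads) and 57.9 ± 2.65 on the anterior arrays, and 449.3 ± 12.4 and 334.6 ± 16.5 on the posterior arrays. In the anterior lobes 56.0% and 89.3% of the negative controls were as bright or brighter, and in the posterior lobes 0%. Both posterior arrays were thus high and both anterior arrays sat at background, and the gap of 2.26 on the log2 scale between the lowest posterior and the highest anterior signal was wider than the 0.46 between the posterior arrays and the 0.19 between the anterior arrays.

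The normalized log2 signal of TLX3 averaged 6.03 ± 0.13 (SD, n = 2 arrays) anterior and 8.62 ± 0.32 posterior (adjusted p = 0.015 by limma). Since the anterior value is background, its difference of 2.59 is no measured fold. Set against the dimmest detected probes of the anterior arrays, the posterior signal of TLX3 was at least 3.02-fold higher. Other normalizations moved this bound to between 2.99-fold with cyclic loess and 4.97-fold with background correction by neqc. Without a filter, over all 45281 probes, the adjusted p was 0.0022 by limma, with the anterior value again at background. The call was lost with the methods' t-test (adjusted p = 0.55). Requiring detection on all 4 arrays, or leaving out either posterior array, removed TLX3 from the tested probes.

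The TLX1 probe, by contrast, gave 65.0 and 57.2 in the anterior lobes against 56.1 and 66.4 in the posterior lobes, and at least 70.2% of the negative controls were as bright on each array. So within the TLX pair only the signal of TLX3 was above background, and no fold can be given for TLX1. LBX1, which is required for the GABAergic fate in the dorsal horn, was read at 88.6 and 88.5 in the anterior lobes against 87.5 and 95.7 in the posterior lobes. It was not detected on any array, and its lobes overlapped.

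PTF1A was above all negative controls on every array with both of its probes. On ILMN_1212730 its intensity was 1059.8 ± 30.5 (standard error over beads) and 738.7 ± 19.8 in the anterior lobes, against 1348.1 ± 47.0 and 1434.6 ± 33.6 in the posterior lobes. On ILMN_2917074 it was 380.3 ± 18.3 and 267.1 ± 14.1 in the anterior, against 484.8 ± 25.4 and 538.7 ± 21.7 in the posterior lobes. Both probes put the anterior replicate 2 lowest and the posterior replicate 2 highest.

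The log2 signal of PTF1A was 9.78 ± 0.22 (SD, n = 2 arrays) anterior and 10.45 ± 0.021 posterior on ILMN_1212730, and 8.31 ± 0.17 anterior and 9.01 ± 0.084 posterior on ILMN_2917074. These are 1.59-fold and 1.62-fold higher posterior signals, with 95% intervals of the log2 difference from 0.35 to 0.99 and from 0.36 to 1.04. Neither passed the adjusted p (0.20 and 0.21 by limma). After normalization the anterior arrays still differed by 0.31 and 0.25 on the log2 scale for PTF1A, and the posterior arrays by -0.029 and -0.12 (replicate 1 minus 2). Without anterior replicate 1 the differences were 0.83 on both probes, and without anterior replicate 2 they were 0.51 and 0.57. Without posterior replicate 1 they were 0.68 and 0.76, and without posterior replicate 2 they were 0.66 and 0.64. Each of these fits leaves a lobe with a single array and so without its replicate spread, and only the differences are given. With all arrays kept, the methods' t-test gave adjusted p-values of 0.61 and 0.60.

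PRDM13, the target through which PTF1A acts in the spinal cord, was detected on all 4 arrays, at 899.8 ± 31.7 (standard error over beads) and 819.6 ± 33.6 in the anterior lobes against 988.1 ± 31.8 and 1089.0 ± 35.8 in the posterior lobes. Both posterior intensities were above both anterior ones. On the log2 scale the means were 9.74 ± 0.054 (SD, n = 2 arrays) anterior and 10.03 ± 0.056 posterior, 1.22-fold higher with a 95% interval of the log2 difference from 0.038 to 0.55 (adjusted p = 0.44 by limma). That is close to the 1.2-fold limit, and 5.34% of the tested probes had a larger posterior excess.

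PAX2, which marks the young interneurons, was not detected with either of its probes. ILMN_1227108 gave 82.6 and 62.9 in the anterior lobes against 75.6 and 75.2 in the posterior lobes, and ILMN_2949326 gave 125.4 and 78.9 against 111.2 and 93.1. The lobes overlapped on both probes. PAX2 therefore gives no fold, and its signal at background says only that these probes did not rise above the negative controls.

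Of the proneural pair, NEUROG2 was detected on all 4 arrays with ILMN_1213024, at 377.5 ± 14.6 (standard error over beads) and 325.8 ± 14.7 in the anterior lobes against 431.7 ± 15.01 and 484.4 ± 21.5 in the posterior lobes. Normalized log2 signals were 8.45 ± 0.032 (SD, n = 2 arrays) against 8.85 ± 0.091, a 1.32-fold higher posterior signal with a 95% interval of the log2 difference from 0.10 to 0.69 (adjusted p = 0.39 by limma). Its second probe, ILMN_2924180, lay at 105.8 and 98.5 in the anterior lobes against 101.9 and 111.8 in the posterior lobes and was not detected on any array. The probes of NEUROG2 thus disagree on whether the gene was detected. NEUROG1 came nearest to detection among the genes left out, with 127.8 and 113.8 in the anterior lobes against 123.3 and 108.9 in the posterior lobes and between 6.30% and 16.5% of the negative controls as bright.

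**Figure D2:**
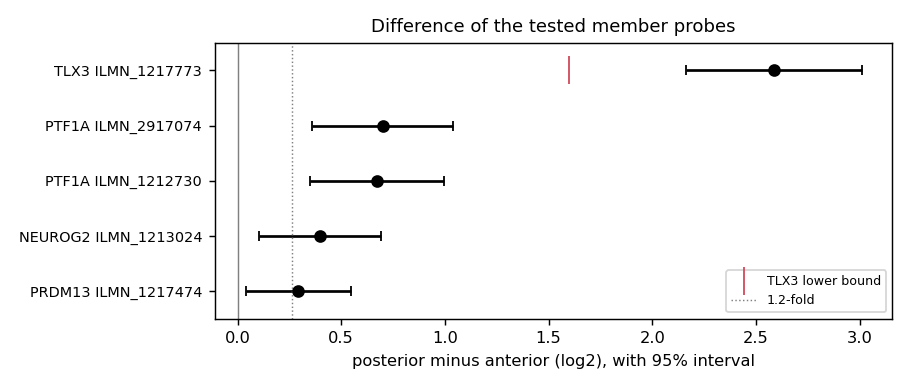
Difference in normalized log2 signal, posterior minus anterior (x axis), with its 95% interval from limma for the 5 tested probes (y axis), beside a dotted line at 1.2-fold and a red tick at the lower bound of TLX3. All intervals lie above 0, with those of PRDM13 and NEUROG2 reaching below the 1.2-fold line, and the point of TLX3 at 2.59 is against background.

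Of 4 regulators of Tlx3 that the study discusses, none passed the adjusted p. PAX6, the paired homeobox factor of granule neurons, was detected on all 4 arrays at 197.9 and 147.3 in the anterior lobes against 163.9 and 192.5 in the posterior lobes, and the lobes overlapped. Its log2 difference was 0.040, with a 95% interval from -0.27 to 0.35 (adjusted p = 0.94 by limma). This probe was dim, so a change could be understated, and the other PAX6 probe was detected on too few arrays to be tested. Of the subunits of the CCAAT-binding factor, NFYB had a log2 difference of 0.27, NFYC of -0.017 and NFYA of -0.48. Of these 4 tested genes NFYB met the 1.2-fold criterion in the posterior direction (adjusted p = 0.35 by limma), and the median difference of the list was 0.011, against 0.0023 over all tested probes.

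Factors that depend on Tlx3 elsewhere in the nervous system gave 1 tested gene of 5. EBF2 was lower in the posterior lobes, from 828.1 and 911.6 to 423.8 and 514.2, with a log2 difference of -0.88 that met the 1.2-fold criterion (adjusted p = 0.19 by limma). PRRXL1, ISL1 and PHOX2A were not detected on any array, and POU4F1 was detected on 1. The nicotinic subunit CHRNA3, which the study links to Tlx3, was at 225.7 and 227.1 in the anterior lobes against 849.6 and 760.4 in the posterior lobes on its detected probe, with a log2 difference of 1.84 (adjusted p = 0.030 by limma). With all arrays kept, the methods' t-test gave CHRNA3 an adjusted p of 0.55. With any 1 array left out its difference lay between 1.71 and 1.96. Such fits leave a lobe with a single array, so only the differences are given. The other CHRNA3 probe was not detected on any array.

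Of 5 partners of PTF1A 3 were tested, and none of these showed a difference past either threshold. The E proteins TCF3, TCF4 and TCF12, with which such factors pair, had log2 differences of 0.038, 0.0079 and -0.037. RBPJ and RBPJL, whose proteins complete the PTF1A complex, were not detected on any array with any of their probes. That says only that these probes did not rise above the negative controls.

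Among 10 factors of GABAergic lineages with a probe, 5 were tested, and LHX5 alone passed the 1.2-fold criterion. LHX5, a LIM homeobox factor of Purkinje cells and of dorsal horn neurons, was at 705.7 and 716.5 in the anterior lobes against 916.8 and 883.3 in the posterior lobes, a log2 difference of 0.37 (adjusted p = 0.44 by limma). LBXCOR1, the array's symbol for the corepressor of LBX1, was detected on all 4 arrays although LBX1 was not, with a log2 difference of 0.16. LHX1, GATA2 and TAL1 had log2 differences of -0.10, -0.13 and -0.085, and the median of the list was -0.085. KIRREL2, a direct target of PTF1A, was not detected.

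Of 4 genes that make or carry the inhibitory transmitter 2 were tested, and neither met the 1.2-fold criterion. GAD1, which makes GABA, was at 8890.8 and 7597.5 in the anterior lobes against 8067.1 and 7331.8 in the posterior lobes, with a log2 difference of -0.092 and a 95% interval from -0.29 to 0.11. SLC32A1, which loads GABA and glycine into vesicles, had a log2 difference of -0.028 with an interval from -0.18 to 0.12.

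On the glutamatergic side none of the 7 tested genes of the rhombic lip lineage passed the 1.2-fold criterion. SLC17A6, the vesicular glutamate transporter of young neurons, had a log2 difference of 0.26 with an interval from 0.065 to 0.45, and SLC17A7, that of mature granule neurons, had -0.22 with an interval from -0.40 to -0.040. NEUROD1 and BARHL1, factors of granule neurons, had 0.12 and -0.30. ATOH1, which starts the lineage, was not detected on any array with its only probe, which does not show that the gene was off.

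**Figure D3:**
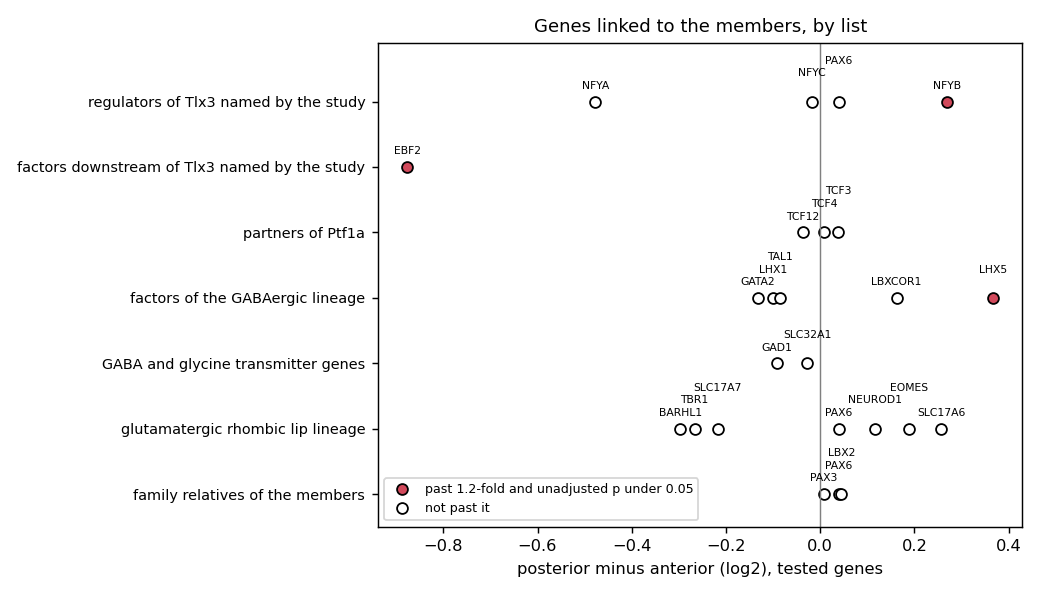
Difference in normalized log2 signal, posterior minus anterior (x axis), of each tested gene in 7 lists of linked genes (y axis), filled where it met the 1.2-fold criterion. NFYB and LHX5 are the filled points on the posterior side and EBF2 is the filled point on the anterior side.

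TLX3 is also a gene of brain stem neurons, so their markers were read on the same arrays. None of the 9 markers read was detected on any array, among them PHOX2A, DBH, TH and LMX1B. The summed normalized intensity of the list was 753.0 and 779.0 in the anterior lobes against 784.3 and 737.4 in the posterior lobes. With no marker detected, these sums are background and cannot tell how much brain stem tissue a sample held.

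Markers of other tissue differed between the lobes. The 6 markers of meningeal fibroblasts summed to 15009 and 16998 in the anterior lobes against 22743 and 26526 in the posterior lobes. IGF2 was the brightest of them and weighs most in these sums. Upwards, 4 of the 6 passed the 1.2-fold criterion (DCN, LUM, OGN and IGF2), of which DCN and OGN passed the adjusted p. COL1A2 had a log2 difference of -0.039. Markers of oligodendrocytes went the other way, from 63928 and 63327 to 42278 and 41114, with 6 of 6 past the 1.2-fold criterion and MAG, MOBP and MAL past the adjusted p. The choroid plexus list ran from 958.2 to 11599 over the 4 arrays and was highest on both arrays of replicate 2. TTR had that pattern, at 599.9 and 9501.9 in the anterior lobes against 325.9 and 3777.6 in the posterior lobes. CLIC6 instead was lower in the posterior lobes, at 268.1 and 372.2 against 503.9 and 699.8. Its log2 difference of -0.89 met the 1.2-fold criterion (adjusted p = 0.39 by limma). The astroglial list overlapped between the lobes. Their part in the differences of TLX3, PTF1A, PRDM13 and NEUROG2 was not tested.

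**Figure D4:**
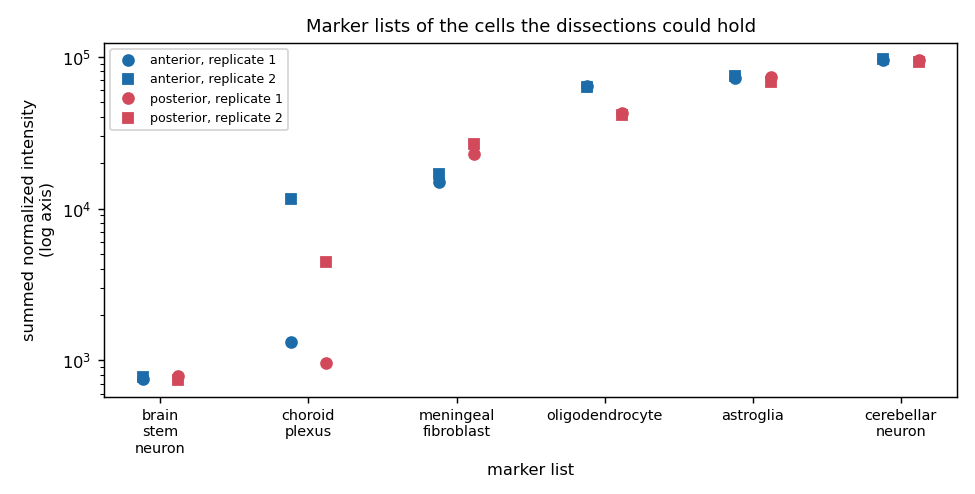
Summed normalized intensity (y axis, log scale) of the markers in each of 6 lists (x axis) on every array, anterior in blue, posterior in red, circles for replicate 1 and squares for replicate 2. The brain stem sums, all from undetected probes, lie between 737.4 and 784.3 in both lobes. The meningeal sums are higher and the oligodendrocyte sums lower on both posterior arrays.

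The probes whose pattern over the 4 arrays was most like that of TLX3, by the Euclidean distance between profiles centred on their own means, were those of MOXD1 (0.51), H19 (0.54 and 0.68), DCTN1 (0.62) and CHRNA3 (0.83). Unlike TLX3, all of them were detected on at least 1 anterior array, with MOXD1 at 155.4 and 151.3 there and at 753.3 and 808.1 in the posterior lobes. For PTF1A the nearest were MYH8 (0.060), SFRS10 (0.068), D130067E14RIK (0.073), 1700021K10RIK (0.074) and THSD4 (0.083), with log2 differences between 0.62 and 0.70. Likeness over 4 arrays describes these arrays and is given with no test.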

How the data were processed

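RNA of anterior and posterior lobes of postnatal day 7 Swiss mouse cerebellum, 2 samples each, was measured on Illumina MouseWG-6 v2.0 bead arrays. The authors deposited, per the file headers from GenomeStudio without normalization, the mean bead intensity, its SD over beads, the number of beads and a detection score per probe, a fraction equal to 1 minus the detection p-value. Another 16 columns were not used. The 8 genes, their related and marker lists and the tests were chosen with earlier results of these data known.

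In R 4.3.3, intensities were quantile normalized, values under 1 set to 1, and log2 taken. The 21726 probes detected (p-value below 0.05) on 2 or more of the 4 arrays were tested with limma 3.58.1 (lmFit, and eBayes with intensity trend), with Benjamini-Hochberg adjustment over these probes. The fit was tested on simulated data. Every probe of the 8 genes is named. Each list gene is represented by its brightest tested probe. Some list genes are not reported here and were left out of the counts and medians of their lists. Genes of the 13 lists that passed a threshold are named, others as examples, beside the 5 nearest profiles to TLX3 and to the brighter PTF1A probe. Promoter windows came from RefSeq (GRCm38.p6), matched by symbol. The number of arrays limits precision. Alternatives were neqc (offset 16), no normalization, a 75th percentile shift, cyclic loess, no filter, detection on all 4 arrays, detection at 0.01 in place of 0.05, eBayes without trend, the methods' t-test, a replicate block and leaving out each array.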

Additional observations from a re-analysis of the deposited data

How the results depend on the processing

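All alternatives kept TLX3, both PTF1A probes, PRDM13 and NEUROG2 (ILMN_1213024) higher in the posterior lobes wherever the probe was tested. Apart from the fit without a filter, TLX3 was tested only through the posterior arrays, where it was high, so its calls are no independent support. Among the alternatives that kept every array and tested TLX3, only the methods' t-test lost the call. There the difference of 2.59 had an adjusted p of 0.55. Over those alternatives the adjusted p of TLX3 ran from 1.7e-06 to 0.55 by limma or that test. Without either anterior array its difference lay between 2.50 and 2.65, against background throughout. Leaving out an array gave PTF1A differences between 0.51 and 0.83 (ILMN_1212730) and between 0.57 and 0.83 (ILMN_2917074). Such fits leave a lobe with a single array, so only the differences are given. A replicate block left both differences unchanged (0.67 and 0.70) and gave adjusted p-values of 0.016 and 0.023 by limma. Over the alternatives that kept every array, these were the lowest adjusted p-values of the PTF1A probes. The highest were 0.61 and 0.60, with the methods' t-test.

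The number of the 8 genes' probes past the adjusted p, 1 by limma, was 3 with the block, 0 with the methods' t-test (4 at an unadjusted p under 0.05) and 0 with detection on all 4 arrays, which removes TLX3 (4 by limma at an unadjusted p under 0.05). With 1 array dropped, a lobe is left with a single array, so no count is given for those fits. The number past the 1.2-fold criterion, 5 by limma, was 3 without normalization and 4 with the methods' t-test. Replicate 1 minus replicate 2 in the anterior lobes, set against the same in the posterior lobes across the tested probes, gave r = 0.46 over probes, which are not independent, a hint from the data and not from the design, since the labels do not tie samples of one number to one animal. Under another filter or without an array some list medians moved by more than the spread between arrays, such as that of choroid plexus markers from -0.89 to 0.28 without anterior replicate 2. No median could be given for the brain stem markers, none of which was tested.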

Other observations

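Relatives of the 8 genes outside the fate switch itself were mostly dim. Of 11 relatives 9 had a probe and 3 were tested, namely PAX6, PAX3 and LBX2, with a median log2 difference of 0.040, against 0.0023 over all tested probes. TLX2, the remaining member of the TLX family, was read at 76.1 and 67.1 in the anterior and 76.2 and 70.4 in the posterior lobes and was not detected, so TLX3 was the only one of the 3 TLX genes above background. NEUROG3, the relative of NEUROG1 and NEUROG2 known from endocrine pancreas, was not detected either, at 60.1 and 66.8 against 60.0 and 67.4. LBX2, in contrast to LBX1, was detected on all 4 arrays, at 167.8 and 191.8 in the anterior and 194.0 and 178.8 in the posterior lobes, with overlapping lobes and a log2 difference of 0.045 (adjusted p = 0.95 by limma). PAX3 was detected on 3 arrays with a log2 difference of 0.0071 (adjusted p = 0.99 by limma).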
